A study of Mus musculus with 18 samples.

Results

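Gata2, Kit, Hdc, Cpa3, Ms4a2 and Cd200r3 are 6 mouse genes linked to mast cells and basophils. They were picked by symbol from the 56748 genes of the count table, with earlier results of these data known, and all 6 were among the 14985 genes with enough counts to test. The libraries came from RN2, an acute myeloid leukemia line of mouse cells with MLL-AF9 and NrasG12D that are otherwise labelled wild type. Every group carried 1 of 4 lentiviral constructs and was sorted on day 5 after transduction, with 3 libraries per group and 18 in all. The nCas9 cells expressed the Cas9 nickase alone. Intact BE is a base editor with the evoA1 deaminase, the catalytic mutant is the same editor with that deaminase inactivated, and seBE is a split-engineered base editor that rapamycin switches on. Rapamycin at 1 nM, or vehicle, was given for the last 24 h to the intact BE and the seBE cells, and seBE is named without a drug below where it was under vehicle. A treatment tag gives vehicle to nCas9 and the catalytic mutant too, while their titles and the protocol name none. The stated purpose was to look in gene expression for mechanisms of editor toxicity. All groups are the same cell line, and the titles mark the 3 libraries in each as biological replicates. The labels do not state separate cultures, and the p-values then measure only how far these samples spread, which may be technical.

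Mast cells and basophils are the tissue and blood cells that carry IgE on their surface and release histamine and proteases from granules. GATA2 is a transcription factor of blood stem cells, progenitors and the mast cell lineage, and KIT is the receptor for stem cell factor, which mast cells need to survive. HDC, histidine decarboxylase, makes histamine. CPA3 is the carboxypeptidase of mast cell granules, MS4A2 is the beta chain of the high-affinity IgE receptor, and CD200R3 is an activating member of the CD200 receptor family found on mast cells and basophils. Gata2 and Kit are also expressed in immature blood cells.

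The label was checked against defining markers. Of 8 mast cell markers, Fcer1a, Cma1, Tpsb2, Tpsab1 and Mrgprb2 had no count in any of the 18 libraries, Mcpt4 had 2 counts in all, and Mitf and Slc45a3 reached means of 4.18 and 0.527 CPM (counts scaled to a common library total with TMM factors). The floor of 3 counts in a library is 0.132 to 0.217 CPM. Of 5 basophil markers, Fcer1a and Prss34 had no count, Itga2 and Il4 stayed at means of 0.172 and 0.101 CPM, and Mcpt8, a basophil protease, reached 16.4 CPM. The summed level of the mast cell markers ran from 2.74 to 6.73 CPM over the libraries and that of the basophil markers from 10.7 to 27.6 CPM. Monocyte, neutrophil and progenitor markers were far higher, with means of 1153 CPM for Ly6c2, 567 CPM for Elane and 387 CPM for Cd34. The 6 genes are therefore described here as genes linked to these lineages, expressed in a myeloid leukemia line in which the genes that define mature mast cells were at or near 0.

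Promoter sequences are shown because GATA2, the transcription factor of the set, is a GATA-motif binding protein, and because Cd200r4, of the same receptor family, was the gene whose profile over the libraries was closest to that of Cd200r3. The windows are the 250 bases before the annotated start site in RefSeq on GRCm38.p6, written in the direction of the gene. Capitals mark GATAA or, for the other strand, TTATC. Positions count back from the start site, with -1 as the base just before it.
Cd200r3, chr16:44943428-44943677, plus strand: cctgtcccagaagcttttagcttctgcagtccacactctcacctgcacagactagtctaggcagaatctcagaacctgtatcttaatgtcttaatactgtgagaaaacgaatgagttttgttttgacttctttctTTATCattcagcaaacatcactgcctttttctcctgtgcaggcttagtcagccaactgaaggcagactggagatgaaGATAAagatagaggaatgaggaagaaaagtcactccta
Cd200r4, chr16:44820478-44820727, plus strand: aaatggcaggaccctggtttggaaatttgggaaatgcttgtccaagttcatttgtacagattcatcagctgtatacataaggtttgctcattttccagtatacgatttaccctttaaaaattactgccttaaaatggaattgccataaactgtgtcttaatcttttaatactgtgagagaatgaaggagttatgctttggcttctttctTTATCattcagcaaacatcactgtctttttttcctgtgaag
Cpa3, chr3:20242182-20242431, minus strand: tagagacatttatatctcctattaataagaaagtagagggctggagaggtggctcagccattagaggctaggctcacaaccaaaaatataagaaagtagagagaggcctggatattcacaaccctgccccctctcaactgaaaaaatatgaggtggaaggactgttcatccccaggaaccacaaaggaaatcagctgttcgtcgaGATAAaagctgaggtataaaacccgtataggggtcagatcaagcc
Ms4a2, chr19:11623720-11623969, minus strand: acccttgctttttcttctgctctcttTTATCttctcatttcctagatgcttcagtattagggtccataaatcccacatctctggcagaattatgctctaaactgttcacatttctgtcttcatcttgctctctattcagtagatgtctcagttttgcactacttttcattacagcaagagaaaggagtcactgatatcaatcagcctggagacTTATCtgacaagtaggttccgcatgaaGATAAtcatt
A GATAA on either strand was found in 3 of the 6 genes. Cpa3 has 1 match, at -45, Ms4a2 has 3, at -224, -37 and -10, and Cd200r3 has 2, at -115 and -38. Gata2, Kit and Hdc have no GATAA on either strand in their annotated windows. Other forms of the GATA motif were not searched for and may be present there. The windows of Gata2 and Kit were 67.2% to 74.0% G or C and that of Hdc 48.8%. Those of Cpa3, Ms4a2 and Cd200r3 were at 44.4%, 38.8% and 42.0%, and the median of all windows was 52.4%. Both Kit windows and a Gata2 window overlap exons of their own gene. The part of base composition in the matches was not tested. GATAA was found on either strand in 22.6% of the 32851 windows of this length in the RefSeq table, and in at least 1 window of 25.5% of its genes. A local alignment of the Cd200r3 and Cd200r4 windows ran over 107 columns, 93 of them identical (86.9%), starting at -181 in Cd200r3 and at -107 in Cd200r4. The TTATC at -115 in Cd200r3 and the one at -41 in Cd200r4 lie in this shared stretch. A match of 5 letters is a description of the sequence and not evidence of binding.

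Per length, the genes fell into a higher and a lower set. Mean levels over the 18 libraries, in CPM per kilobase of merged exons, were 36.6 ± 5.64 (SD, n = 18) for Hdc, 21.8 ± 5.84 for Cpa3, 18.3 ± 2.84 for Gata2 and 15.3 ± 3.08 for Kit. Ms4a2 stood at 2.42 ± 0.485 and Cd200r3 at 2.31 ± 0.856 on this scale. Hdc was above 90.3% of the tested genes with a length, and Cd200r3 above 36.4%. The gamma chain of the IgE receptor, Fcer1g, which is shared with other Fc receptors, stood at 375 CPM per kilobase, against 2.42 for the beta chain gene Ms4a2, while Fcer1a, the gene of the IgE-binding alpha chain, had no count.

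**Figure D1:**
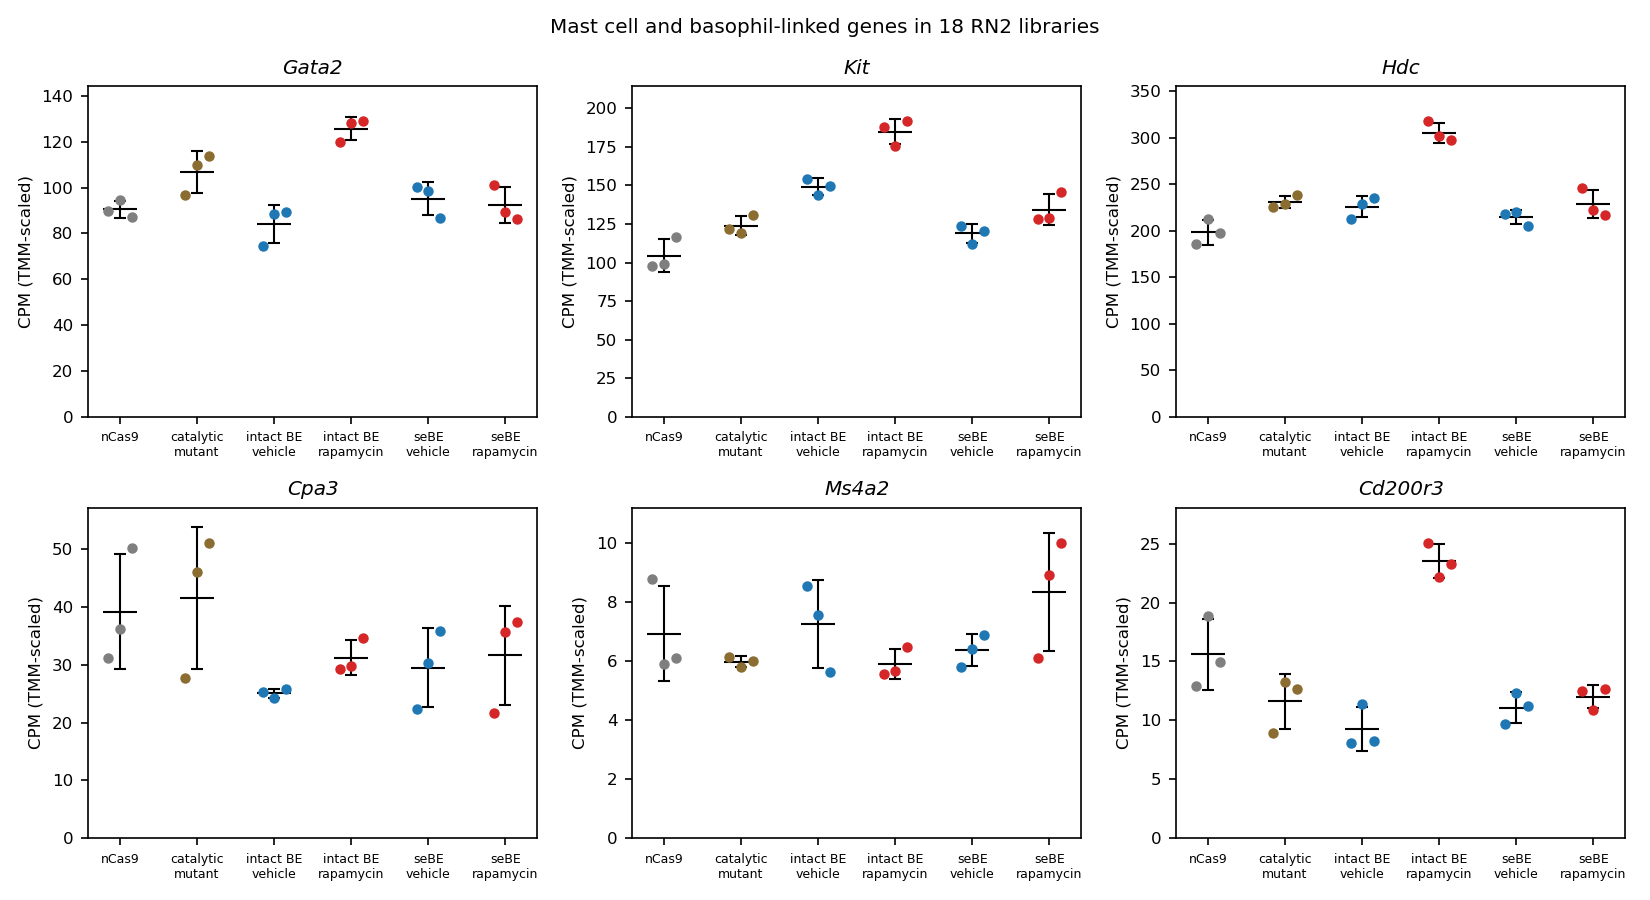
Level of each gene (vertical axis, CPM from 0) in the 6 groups (horizontal axis), with 1 point per library (red under rapamycin, blue under vehicle, grey nCas9, brown catalytic mutant) and the mean ± SD of 3 libraries in black. Gata2, Kit, Hdc and Cd200r3 were highest under rapamycin with intact BE, at means of 126, 185, 305 and 23.5 CPM, with no library of another group reaching them. The share of all tested genes for which this holds was not counted.

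For 4 of the 6 genes, cells with intact BE under rapamycin had the highest levels. Gata2, Kit, Hdc and Cd200r3 all had 3 rapamycin libraries above every other library of the study, Cd200r3 by about 2.55-fold over its vehicle group. The share of all tested genes with that order was not counted, so nothing is read from it. Cpa3 was above its vehicle libraries but, at 31.2 CPM, below nCas9 at 39.2 CPM and the catalytic mutant at 41.6 CPM, and Ms4a2 was lowest of the 6 groups there at 5.90 CPM. The members were chosen with these values known, so no p-value is given for them, and calls past the threshold are given only as a description. In these bulk libraries, fewer cells of a type and less RNA per cell cannot be told apart.

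Gata2 was counted at 74.6, 88.6 and 89.4 CPM under vehicle and at 120, 128 and 129 CPM under rapamycin in intact BE. The groups did not overlap, and replicate 1 was the lowest library of each. Its log2 fold change was 0.58 ± 0.0858 (SE), a ratio of 1.49. In seBE it was at 100.1, 98.3 and 86.8 CPM under vehicle and 101, 89.5 and 86.1 CPM under rapamycin, which overlapped, with a log2 fold change of -0.04 ± 0.0857.

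Kit stood at 154, 144 and 150 CPM under vehicle and at 188, 176 and 192 CPM under rapamycin in intact BE. The groups were apart, and the log2 fold change was 0.31 ± 0.0778. In seBE it was at 124, 112 and 121 CPM under vehicle and at 128, 129 and 146 CPM under rapamycin. Here too no libraries overlapped, though by a narrow gap, and the log2 fold change was 0.18 ± 0.0783. Kit was the only member whose seBE libraries were apart by drug.

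Hdc was at 213, 229 and 235 CPM under vehicle and at 317, 301 and 297 CPM under rapamycin in intact BE, a log2 fold change of 0.44 ± 0.0705. The lowest rapamycin library was well above the highest vehicle library. In seBE it was at 218, 220.03 and 206 CPM under vehicle and 246, 223 and 217 CPM under rapamycin, which overlapped, with a log2 fold change of 0.09 ± 0.0706.

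Cd200r3 showed the largest change among the 6. It was counted at 8.11, 11.4 and 8.25 CPM under vehicle and at 25.1, 22.2 and 23.3 CPM under rapamycin in intact BE, with 143 to 169 reads per vehicle library and 436 to 571 per rapamycin library. The log2 fold change was 1.35 ± 0.177, and the groups lay far apart. In seBE it was at 9.71, 12.3 and 11.2 CPM under vehicle and 12.5, 10.9 and 12.7 CPM under rapamycin. Those groups overlapped, with a log2 fold change of 0.12 ± 0.176.

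Cpa3, the granule carboxypeptidase gene, was at 25.3, 24.2 and 25.8 CPM under vehicle and at 29.2, 29.7 and 34.7 CPM under rapamycin in intact BE. The groups did not overlap, but the log2 fold change of 0.31 ± 0.253 had an SE close to its size. In seBE, Cpa3 ran from 22.3 to 35.9 CPM under vehicle and from 21.7 to 37.3 CPM under rapamycin, with replicate 1 the lowest library of both groups. Ms4a2 was at 8.56, 7.56 and 5.63 CPM under vehicle and 5.57, 5.65 and 6.49 CPM under rapamycin in intact BE, which overlapped, with a log2 fold change of -0.29 ± 0.230. In seBE it was at 5.81, 6.40 and 6.89 CPM under vehicle and 6.11, 8.91 and 10.01 CPM under rapamycin, also overlapping, with a log2 fold change of 0.39 ± 0.228. Its counts of 85 to 225 reads per library left it the member with the fewest reads.

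**Figure D2:**
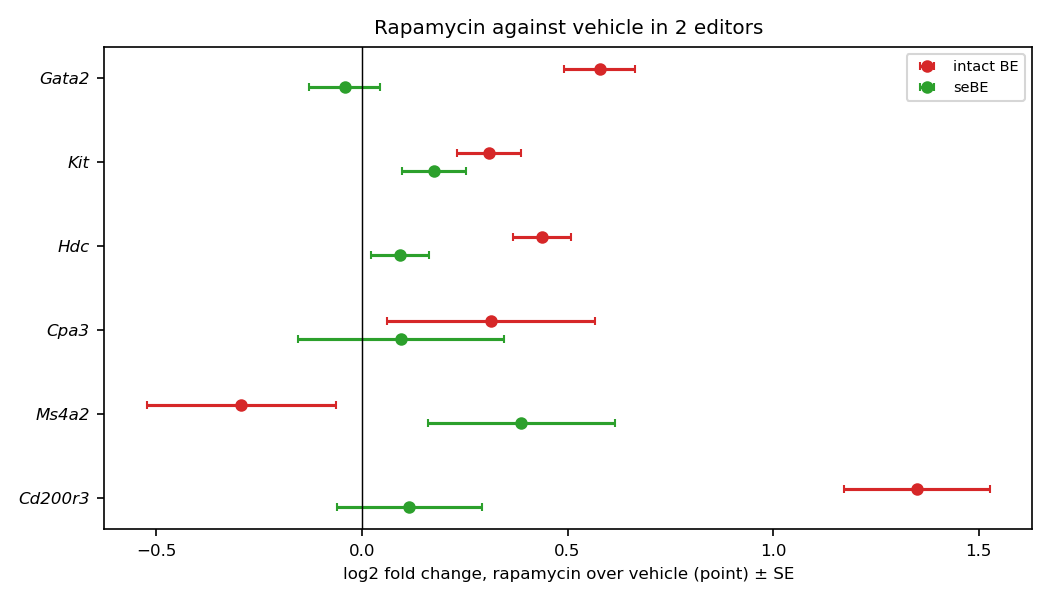
Log2 fold change of rapamycin over vehicle (horizontal axis, point ± SE) for each gene (vertical axis), in cells with intact BE (red) and with seBE (green). Cd200r3 lies at 1.35 in intact BE and at 0.12 in seBE, and Gata2 at 0.58 and -0.04, while Ms4a2 lies below 0 in intact BE and above 0 in seBE.

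In intact BE, 4 of the 6 genes were past the threshold of an adjusted p of 0.05 in edgeR's quasi-likelihood test, all higher, against 3.32% of all tested genes in either direction and 1.98% higher. Libraries did not overlap for 5 of the 6, all higher, against 10.5% of all genes. The median log2 fold change of the 6 was 0.38, and of all tested genes -0.004. Since the genes were chosen on such contrasts, nothing is read from these counts. Gata2, Hdc and Cd200r3 kept that side of the threshold in all 25 alternative analyses, and Kit lost it without rapamycin replicate 1 or 3 or vehicle replicate 2 or 3, at log2 fold changes of 0.28 to 0.31. The rapamycin libraries of intact BE were deeper, at 20044158 to 23284932 counts against 14789497 to 18590586 under vehicle, and had a mitochondrial share of 1.99% to 2.25% against 1.78% to 2.02%. Some markers of other myeloid cells moved between these groups as well. The summed level of the 6 monocyte and macrophage markers was 2131 to 2335 CPM under rapamycin against 1896 to 1973 CPM under vehicle. Lyz2 was at 640 ± 46.4 against 432 ± 3.91 CPM, Itgam at 201 ± 19.3 against 135 ± 7.19 CPM and Ccr2 at 218 ± 17.8 against 182 ± 17.8 CPM (SD, n = 3). Libraries overlapped for Ly6c2 (1143 ± 38.3 against 1128 ± 46.8 CPM), Csf1r (20.1 ± 1.86 against 18.2 ± 3.60 CPM) and Cd68 (29.8 ± 2.48 against 30.9 ± 1.40 CPM). The sum of the 6 neutrophil markers overlapped, at 959 to 1152 CPM against 1048 to 1148 CPM, but its genes went both ways. Elane was at 503 ± 29.9 against 605 ± 33.0 CPM and Mpo at 233 ± 19.0 against 289 ± 34.6 CPM. S100a8 was at 202 ± 72.3 against 126 ± 44.4 CPM and S100a9 at 122 ± 43.5 against 73.2 ± 31.6 CPM, with overlapping libraries. None of these 12 markers was without counts in either group. The part of depth and of these markers in the members' values was not tested.

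In seBE, 0 of the 6 genes and 0 of the 14985 genes were past the threshold (0% of all tested genes), with 1 member and 493 genes (3.29%) at an unadjusted p under 0.05 in edgeR and 1 gene past the adjusted threshold in DESeq2. Kit's libraries alone did not overlap, against 3.64% of genes higher in this sense. In seBE, rapamycin also switches the editor on, and no nCas9 or catalytic mutant cells were given it. The drug itself and the switching on of the editor cannot be told apart in seBE. The difference between the drug effects, seBE less intact BE, was -1.24 ± 0.249 for Cd200r3, -0.62 ± 0.121 for Gata2, -0.34 ± 0.0998 for Hdc, -0.22 ± 0.356 for Cpa3, -0.13 ± 0.110 for Kit and 0.68 ± 0.324 for Ms4a2, on the log2 scale. Gata2 and Cd200r3 were 2 of 28 genes past the threshold in that comparison (0.187% of all tested genes), a count from which nothing is read. Leaving out single libraries ended this for Gata2 without vehicle replicate 1 of intact BE or of seBE, at differences of -0.54 and -0.58. For Cd200r3 it ended without intact BE vehicle replicate 1 or 3, intact BE rapamycin replicate 1, seBE vehicle replicate 2 or seBE rapamycin replicate 2, at -1.18 to -1.15.

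Under rapamycin, seBE was below intact BE for 4 of the 6 genes past the threshold, against 2.66% of all tested genes lower. The log2 differences were -0.97 ± 0.172 for Cd200r3, -0.46 ± 0.0777 for Kit, -0.45 ± 0.0850 for Gata2 and -0.42 ± 0.0704 for Hdc, with no overlap of libraries, against 10% of all genes lower in this sense. Cpa3 was level at 31.6 against 31.2 CPM, and Ms4a2 was at 8.34 ± 2.01 against 5.90 ± 0.505 CPM (SD, n = 3). These values use the same rapamycin libraries as the drug effect in intact BE and do not add to it.

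Without the drug, the members differed between constructs in different directions. Kit and Cpa3 had larger fold changes in size between intact BE and nCas9 than between rapamycin and vehicle in intact BE. That ranking was not tested. For Cpa3 the values were -0.64 ± 0.253 and 0.31 ± 0.253, neither past the threshold. Against nCas9, intact BE had more Kit and less Cd200r3, and Cpa3 was lower in every library. Kit was at 97.7, 99.2 and 117 CPM in nCas9 and at 144 to 154 CPM in intact BE, a log2 fold change of 0.51 ± 0.0787 with no overlap. Cd200r3 was at 13.0, 18.9 and 14.99 CPM in nCas9 and at 8.11 to 11.4 CPM in intact BE, a log2 fold change of -0.76 ± 0.179, also apart. Cpa3 was at 31.1, 36.1 and 50.3 CPM in nCas9 against 24.2 to 25.8 CPM in intact BE, a log2 fold change of -0.64 ± 0.253. Gata2 (-0.10 ± 0.0864), Hdc (0.18 ± 0.0708) and Ms4a2 (0.06 ± 0.230) lay closer to 0, and Hdc was the other gene whose libraries were apart, by less than 1 CPM. Past the threshold were 2 of the 6, Kit and Cd200r3, against 23% of all tested genes in either direction. Libraries did not overlap for 4 of the 6, against 38% of all genes. The mitochondrial share was 4.43% to 5.54% in nCas9, 3.73% to 5.47% in the catalytic mutant and 2.66% to 4.10% in seBE, against 1.78% to 2.02% in intact BE, and its part in these differences was not tested.

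Against the catalytic mutant, intact BE had more Kit (0.27 ± 0.0786, 119 to 131 CPM in the mutant) and less Gata2 (-0.34 ± 0.0864, 96.6 to 114 CPM in the mutant), and both passed the threshold, against 21% of all tested genes. After the dependence of fold change on the length and GC content of transcripts was removed, Gata2 stood at -0.06 and Kit at 0.16 and neither was past it. The calls ended also without intact BE vehicle replicate 1 for both genes, and for Kit without mutant replicate 2. Cpa3 was at 27.7, 46.0 and 51.0 CPM in the mutant, above all intact BE libraries, with a log2 fold change of -0.73 ± 0.253, and was the third gene of the 6 without overlap, against 37.8% of all genes. It was past the threshold in 11 of 25 alternatives, among them DESeq2, the compared libraries alone and the removal of the length and GC dependence. The catalytic mutant itself differed from nCas9 by 0.24 ± 0.0861 for Gata2, 0.24 ± 0.0790 for Kit and 0.22 ± 0.0709 for Hdc. None of the 6 was past the threshold in edgeR (4.3% of all tested genes were). At an unadjusted p under 0.05 in edgeR there were 4 of the 6, against 18.9% of all tested genes. In DESeq2, 2 were past the threshold, with the share of all genes not given here. Libraries of 3 members, Gata2, Kit and Hdc, lay wholly above nCas9, against 11.2% of all genes.

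For seBE under vehicle, 0 of the 6 genes were past the threshold against nCas9 (4.56% of all tested genes were). Against the catalytic mutant 0 were (0.0267%). At an unadjusted p under 0.05, 2 were against nCas9 (18.3% of all tested genes) and 0 against the mutant (8.7%). The largest difference of seBE from nCas9 was in Cd200r3, at 9.71 to 12.3 CPM (-0.49 ± 0.176). All of its seBE libraries lay below nCas9, against 10.7% of all genes lower without overlap. Against the mutant, Hdc's libraries lay wholly lower (-0.11 ± 0.0708), against 7.17% of all genes. Cpa3 against nCas9 was at -0.41 ± 0.250 with overlapping libraries. Against intact BE, seBE had less Kit (-0.33 ± 0.0785, no overlap), the 1 member of 6 past the threshold, against 3.99% of all tested genes, and 15% lower without overlap. That call ended without intact BE vehicle replicate 1 or seBE vehicle replicate 2. Comparisons against nCas9 share the 3 nCas9 libraries, and those that use intact BE under vehicle share its 3 libraries with the drug comparison, so a low vehicle group lowers one and raises the other.

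**Figure D3:**
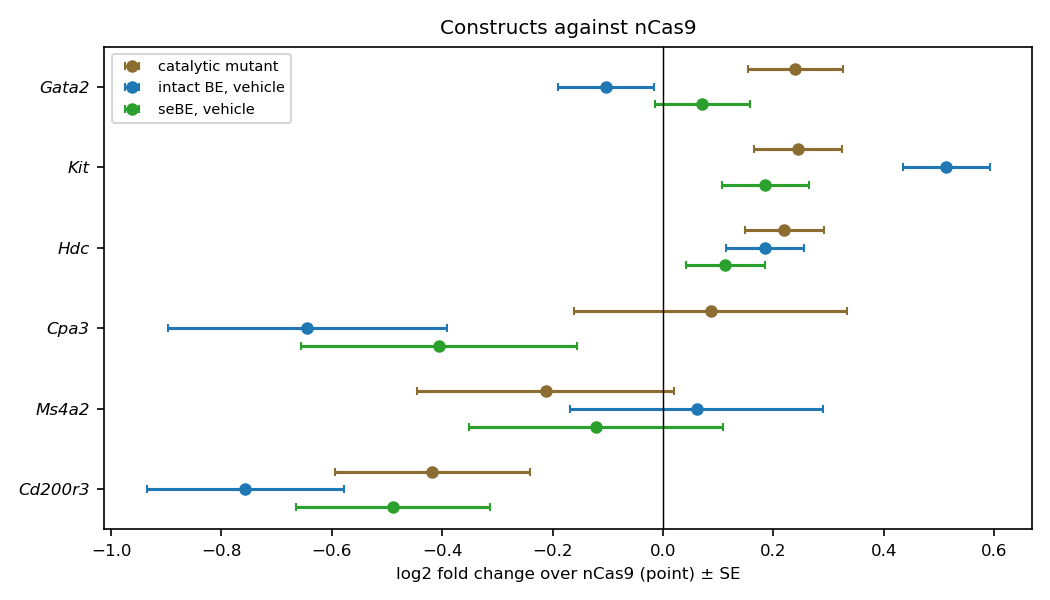
Log2 fold change over nCas9 (horizontal axis, point ± SE) for each gene (vertical axis), for the catalytic mutant (brown), intact BE (blue) and seBE (green), the latter under vehicle. Kit lies at 0.51 for intact BE and Cd200r3 at -0.76, while seBE stays between -0.49 and 0.19 for all 6 genes.

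The order of the groups differed among the genes. Gata2 rose from 84.2 CPM in intact BE under vehicle through nCas9, seBE under rapamycin, seBE under vehicle and the mutant to 126 CPM in intact BE under rapamycin, and only the last step was between groups whose libraries did not overlap. Kit ran from 105 CPM in nCas9 through seBE, the mutant, seBE under rapamycin and intact BE to 185 CPM in intact BE under rapamycin, again with a gap at the last step alone. Hdc ran from 198 CPM in nCas9 to 305 CPM in the same group with the same single gap. Cd200r3 ran from 9.25 CPM in intact BE under vehicle to 23.5 CPM under rapamycin, with nCas9 second at 15.6 CPM and gaps on both sides of nCas9. Cpa3, from 25.1 CPM in intact BE to 41.6 CPM in the mutant, and Ms4a2, from 5.90 to 8.34 CPM, had no gap between neighbours. Within groups the SD of Cpa3 reached 29.6% of the mean and that of Ms4a2 24.1%, against at most 6.74% for Hdc.

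Among the members, Gata2 and Hdc had the most similar profiles. Likeness was measured as the root-mean-square difference of log2 CPM over the 18 libraries, each gene centred on its mean, and was 0.13 for Gata2 and Hdc, 0.15 for Kit and Hdc, and 0.60 for Ms4a2 and Cd200r3, the least alike. Over 9225 candidate genes, the closest to Cd200r3 was Cd200r4 at 0.22, followed by Slc7a11, the cystine transporter gene, at 0.24 and Cd274, the PD-L1 gene, at 0.27. Closest to Gata2 were Cnppd1 (0.10), Bckdha (0.10) and Alas1 (0.11), and closest to Hdc were the elongation factor genes Eef2 (0.07) and Eef1a1 (0.10), then Atxn2 (0.10). Kit was closest to Lcp1 (0.08), Nedd4 (0.09) and Dach1 (0.09). The nearest genes to Cpa3 were Zfp59, Zfp90 and Clk1, at 0.25 to 0.26, and to Ms4a2 Fam45a, Alg11 and Mastl, at 0.14 to 0.16. No member was among the closest genes of another.

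**Figure D4:**
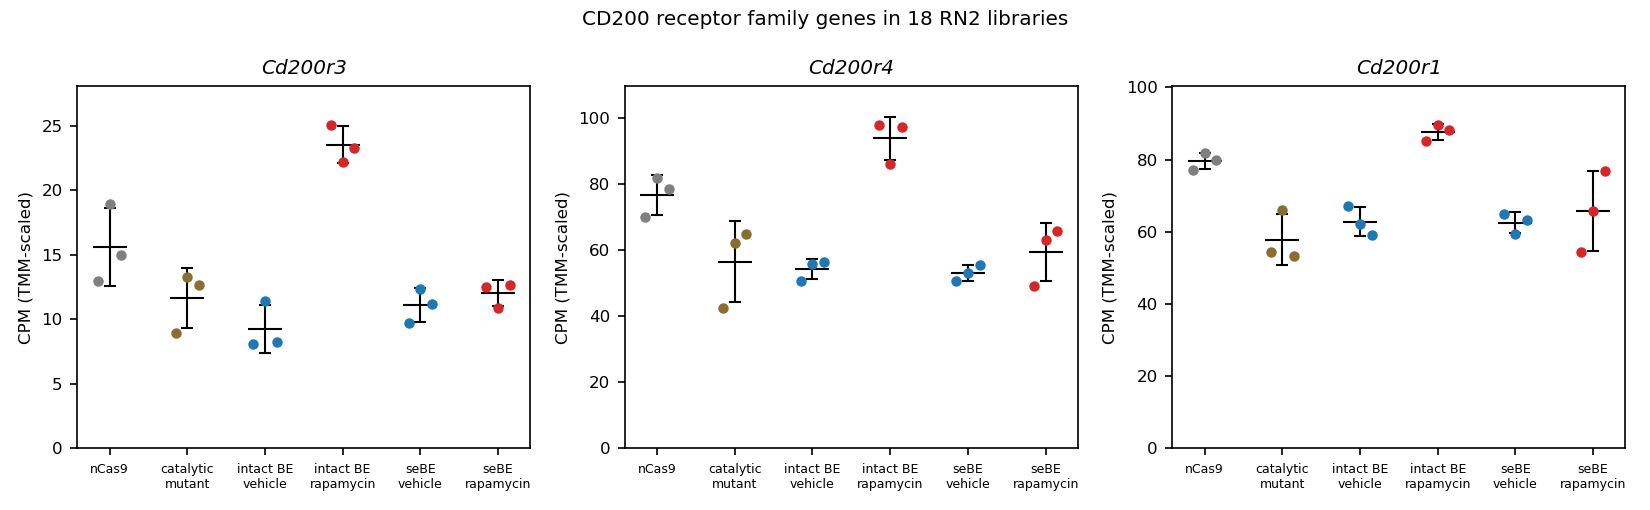
Levels of Cd200r3, Cd200r4 and Cd200r1 (vertical axis, CPM from 0) in the 6 groups (horizontal axis), with 1 point per library (red under rapamycin, blue under vehicle, grey nCas9, brown catalytic mutant) and the mean ± SD of 3 libraries in black. All were highest under rapamycin with intact BE, at means of 23.5, 94.0 and 87.7 CPM, with nCas9 second.

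Of the CD200 receptor family and its adaptors, 7 of 8 genes were tested. With rapamycin in intact BE, 3 rose and 0 fell, against 1.98% and 1.34% of all tested genes. Cd200r4, the closest to Cd200r3 in profile, was at 50.8, 55.9 and 56.4 CPM under vehicle and at 98.1, 86.3 and 97.4 CPM under rapamycin in intact BE. It rose by 0.79 ± 0.114 on the log2 scale (adjusted p = 2.97e-05, edgeR). That likeness was found over these same libraries, so the rise of Cd200r4 is not separate support for it. Cd200r1, the inhibitory receptor, was at 67.3, 62.1 and 59.2 CPM under vehicle and at 85.1, 89.7 and 88.2 CPM under rapamycin, and rose by 0.48 ± 0.0977 (adjusted p = 0.00249). Tyrobp, the DAP12 adaptor that activating receptors of this family signal through, rose by 0.27 (adjusted p = 0.0359), a call that ended in 7 of 25 alternatives. The list median was 0.32, against -0.004 for all genes. In seBE, Cd200r4 stood at 0.16 ± 0.115 and Cd200r1 at 0.07 ± 0.0981 (adjusted p = 0.999 for both). The difference between the drug effects was not past the threshold for Cd200r4 (-0.63 ± 0.162, adjusted p = 0.133) or Cd200r1 (-0.41 ± 0.138, adjusted p = 0.372). The family members are close in sequence, and how the authors' count treated reads mapping to several genes is not given in the sources used here, so reads may be shared among them and the single values are uncertain.

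In intact BE against nCas9, 9.83% of all tested genes were lower and 13.1% higher. The same list had 4 of 7 lower and 0 higher there, with a median of -0.47. They were Tyrobp (-0.47, adjusted p = 2.82e-05), Cd200r4 (-0.50, adjusted p = 0.00169), Hcst, the DAP10 adaptor (-0.81, adjusted p = 0.00542), and Cd200r1 (-0.34, adjusted p = 0.0102). With the length and GC trend removed, Tyrobp and Hcst no longer passed, and 2 of 7 were lower. Cd200r1 and Cd200r4 were also lower than nCas9 in the catalytic mutant (-0.46, adjusted p = 0.00617, and -0.44, adjusted p = 0.0236) and in seBE (-0.35, adjusted p = 0.0347, and -0.53, adjusted p = 0.00686). The Cd200r1 call in intact BE ended without intact BE vehicle replicate 3, and those of both genes in the mutant and seBE ended in 1 to 7 of 25 alternatives, in each case without nCas9 replicate 2 among them.

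Of 9 tested genes for surface markers and cytokine receptors, 4 rose and 0 fell with rapamycin in intact BE, with a median of 0.34. Of all tested genes, 1.98% rose and 1.34% fell. Lyz2 and Itgam, given above, were higher in the same libraries, while Cd68, Csf1r and Ly6c2 overlapped. The part of these markers in this was not tested. Cd33, a sialic acid-binding myeloid receptor, rose by 0.46 (adjusted p = 0.000169, 264 ± 28.0 to 362 ± 18.9 CPM, SD, n = 3). Csf2rb, the common beta chain of the IL-3, IL-5 and GM-CSF receptors, rose by 0.34 (adjusted p = 0.0043), and its mouse copy Csf2rb2, the beta chain specific to IL-3, by 0.41 (adjusted p = 0.00605). Csf2rb and Csf2rb2 are paralogs, so their reads may be shared too. Siglecf rose by 0.89 (adjusted p = 0.0409), a call that ended without any 1 of 4 libraries of the pair of groups. Csf2rb lost its call without rapamycin replicate 1, and Csf2rb2 without vehicle replicate 2 or 3. Against nCas9, Il3ra, the alpha chain of the IL-3 receptor, fell in intact BE by 0.92 on the log2 scale (adjusted p = 5.96e-06, 52.7 ± 5.76 to 27.9 ± 3.47 CPM) and did not differ past the threshold in the catalytic mutant (0.01 ± 0.127, adjusted p = 0.987). Intact BE was lower in Il3ra than the mutant as well (-0.92, adjusted p = 2.02e-05), and seBE was higher than intact BE (0.55, adjusted p = 0.0165), which ended in 3 of 25 alternatives, among them without intact BE vehicle replicate 1 or seBE vehicle replicate 2.

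Of the 17 tested GATA2 partners and lineage factors, 2 rose with rapamycin in intact BE and 0 fell, against 1.98% and 1.34% of all tested genes. Ikzf2, the Helios gene, rose by 1.24 ± 0.256 (adjusted p = 0.00372), from 7.68 to 18.2 CPM, and Nfe2, a factor of the megakaryocyte and erythroid lineages that is expressed in mast cells as well, rose by 0.37 (adjusted p = 0.00377). Against nCas9, 3 were higher and 2 lower in intact BE, against 13.1% and 9.83% of all tested genes. The 3 higher genes were Ikzf1 (0.46, adjusted p = 7.74e-05), Fli1 (0.33, adjusted p = 0.00637) and Erg (0.33, adjusted p = 0.0104, ended without nCas9 replicate 2). With the length and GC trend removed the counts were 5 higher and 0 lower. Mitf, the mast cell transcription factor gene, stood at 3.17 to 4.92 CPM over the group means and passed in none of the 10 comparisons. Gata1, the paralog of Gata2 in red cells, mast cells and platelets, had 74 counts over all 18 libraries and did not reach the filter.

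KIT signalling genes, 19 tested of 20, had 8 higher and 0 lower in intact BE against nCas9, with a median of 0.22 against -0.04 for all genes, of which 13.1% were higher and 9.83% lower. Cbl, the ubiquitin ligase that removes the receptor, was 0.68 higher (adjusted p = 1.39e-06, 208 ± 12.6 to 335 ± 30.7 CPM, SD, n = 3), Pik3r1, the regulatory subunit of PI3 kinase, 0.67 (adjusted p = 4.14e-06) and Ptpn11, the SHP2 phosphatase, 0.50 (adjusted p = 6.8e-06). These 3 kept their calls in all 25 alternatives. Against the catalytic mutant 4 of 19 were higher and 0 lower, against 11.6% and 9.33% of all tested genes, led by Cbl (0.53, adjusted p = 7.2e-05), Pik3r1 (0.45, adjusted p = 0.000646) and Ptpn11 (0.30, adjusted p = 0.00282). Pik3r1's call ended with the length and GC trend removed. In seBE against nCas9, 4 were higher and 1 lower, against 2.64% and 1.93% of all tested genes. Kitl, the gene of the KIT ligand, had no count in any library. With rapamycin in intact BE, 0 of 19 were past the threshold in edgeR (3.32% of all tested genes were) and in DESeq2. At an unadjusted p under 0.05 in edgeR there were 3 of 19, against 14.4% of all tested genes.

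The IgE receptor list, 16 tested genes of 18, had 4 higher and 2 lower in intact BE against nCas9, where 13.1% and 9.83% of all tested genes were, and 4 of its genes are also in the KIT list. Fcer1g, the receptor's gamma chain, was at 398, 439 and 381 CPM in nCas9 and at 293, 298 and 293 CPM in intact BE, and fell by 0.46 on the log2 scale (adjusted p = 3.03e-05), but its call ended with the length and GC trend removed (adjusted p = 0.0776). Btk, a kinase downstream of the receptor, was 0.44 higher (adjusted p = 0.000349) and Lat2, an adaptor, fell by 0.33 (adjusted p = 0.000891). Fcer1g was lower than nCas9 also in the catalytic mutant (-0.35, adjusted p = 0.00543) and in seBE (-0.37, adjusted p = 0.00332), each call ending without nCas9 replicate 2 among others. Rapamycin in intact BE moved 0 of the 16 past the threshold in edgeR (3.32% of all tested genes were). At an unadjusted p under 0.05 in edgeR there were 4 of 16, against 14.4% of all tested genes. In DESeq2, 1 was past the adjusted threshold, with the share of all genes not given here.

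Granule and mediator genes, 12 tested of 25, were few, since 10 of the 25 had no count. Mcpt8 stood at 22.7 ± 4.50 CPM in nCas9 and at 13.4 ± 0.678 CPM in intact BE (SD, n = 3), and fell by 0.76 on the log2 scale (adjusted p = 0.000746). Ptges, the prostaglandin E synthase gene, fell by 1.54 (adjusted p = 0.0135), a call that ended without vehicle replicate 2 or 3 of intact BE. These were the 2 of 12 past the threshold, both lower, against 9.83% of all tested genes lower and 13.1% higher. Mcpt8 was lower in seBE as well (-0.74, adjusted p = 0.00648), unless nCas9 replicate 2 or seBE vehicle replicate 1 was left out. With rapamycin in intact BE, Alox5ap, which presents arachidonic acid to 5-lipoxygenase, rose by 0.31 (adjusted p = 0.00519) and Srgn, the granule proteoglycan gene, by 0.25 (adjusted p = 0.0253). These were 2 of 12 higher and 0 lower, against 1.98% and 1.34% of all tested genes. Both calls ended without rapamycin replicate 1 or vehicle replicate 2, and that of Srgn also without rapamycin replicate 3, without vehicle replicate 3 and with library totals alone. Of the MS4A family, to which Ms4a2 belongs, 4 of 11 were tested. In either of these comparisons 0 passed in edgeR, at an unadjusted p under 0.05, or in DESeq2. At the unadjusted cut in edgeR, 33.5% of all tested genes passed for intact BE against nCas9 and 14.4% for rapamycin in intact BE.

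Over all 7 lists, 79 of 108 genes were tested. Of these, 11 rose and 0 fell with rapamycin in intact BE, against 1.98% and 1.34% of all tested genes. In seBE, 0 passed in edgeR (0% of all tested genes did) and in DESeq2. At an unadjusted p under 0.05 in edgeR there were 4 of the 79, against 3.29% of all tested genes. For intact BE against nCas9, 14 of the 79 were higher and 12 lower, 26 in all, beside 23% of all tested genes. For intact BE against the catalytic mutant 8 were higher and 7 lower, 15 in all, beside 21%, a share near the background. The count for rapamycin in intact BE fell to 6 without rapamycin replicate 1. Of the 79, 0 passed in the comparison of the drug effects in edgeR (0.187% of all tested genes did). At an unadjusted p under 0.05 in edgeR there were 10, against 6.97% of all tested genes. Under rapamycin, 9 were lower in seBE than in intact BE and 0 higher, against 2.66% and 2.04% of all tested genes. The lower genes were led by Cd200r4 (-0.66, adjusted p = 0.00051), Lcp2 (-0.32, adjusted p = 0.00392) and Cd200r1 (-0.42, adjusted p = 0.00886). Since the lists were chosen with earlier results known, their counts are a description.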

How the data were processed

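Messenger RNA of 18 RN2 libraries (6 groups of 3) was sequenced after polyA selection with a directional kit, per the labels' protocols. The authors deposited whole-number read counts per Ensembl gene. Per the submitters' processing notes, fastp 1.0.1, STAR 2.7.1a, SAMtools 1.9, featureCounts from Subread 2.0.3 and DESeq2 were used with GRCm39. Strand and multi-mapping settings of the count were not given in the sources used here, so reads of overlapping genes may not be told apart. Totals ran from 13835979 to 23284932 counts per library. A gene name table matched 52073 of 56748 IDs, and the other IDs held 2.36% of counts.

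All 18 libraries entered 1 fit of 6 group means (R 4.3.3, edgeR 4.0.16, filterByExpr, TMM, robust quasi-likelihood tests), with Benjamini-Hochberg adjustment over 14985 genes and a threshold of 0.05. The biological coefficient of variation was 13.3%. CPM used TMM-scaled totals, and log2 CPM a prior count of 2. The tests were checked on simulated counts. Exon lengths came from GENCODE M21 on GRCm38, an older build.

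The 6 genes, the 7 lists of related genes and the markers were chosen with earlier results of these data known, so no p-value is given for the 6 and their calls support nothing. For the same reason the p-values given for genes of the 7 lists are a description. Named from each list and comparison were up to 3 genes past the threshold in order of adjusted p, and always the 6, Kitl, Gata1, Mitf, Fcer1a, Fcer1g and Cd200r1. Siglecf, beyond that order, was chosen after its values were seen, to complete its list's count. Likeness used the 3 closest genes with a symbol and a mean of at least 5 CPM.

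Alternatives were a fit with DESeq2 1.42.0, library totals without TMM, no filter, 1 CPM in 3 libraries, only the compared libraries, the replicate number as a block and each library left out. Removal of a length and GC trend (a spline with 4 degrees of freedom) was added after seeing the data.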

Additional observations from a re-analysis of the deposited data

Results flagged for a closer look

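For Gata2 and Cd200r3 the drug effect in seBE less that in intact BE was past the threshold of the interaction term. For Gata2 this log2 difference was -0.62 ± 0.121 (SE), from 0.58 in intact BE and -0.04 in seBE. For Cd200r3 it was -1.24 ± 0.249, from 1.35 and 0.12. Both genes were chosen with such results known, so the values are a description and show no difference by themselves. In seBE the drug also switches the editor on, and the 2 cannot be told apart. The call ended for Cd200r3 when any 1 of 5 libraries was left out, and for Gata2 when either of 2 was.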

How the results depend on the processing

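Of 1500 fold changes of the 6 genes under the alternatives, 1496 moved by less than the spread between replicates and 4 moved further. That spread was the root of the summed variances of the compared groups. Of the 25 alternatives, 18 left out a library, often of a group outside the comparison, where a fold change can hardly move. The count of 1496 is therefore a weak measure of stability. Reversal was counted only for values past the threshold in the main analysis, and 0 of those reversed. Some small fold changes not past it did change sign, in up to 6 of 25 alternatives for Cpa3 in seBE against intact BE under rapamycin. The 4 that moved further were all with the length and GC trend removed: Gata2 in the catalytic mutant against nCas9 (0.05), and Gata2 (-0.06), Kit (0.16) and Hdc (-0.13) in intact BE against the mutant. The cause was not tested. Counts of list genes past the threshold moved by over 1.5 times as follows. With DESeq2 there were 23 for intact BE against the mutant, 6 for seBE against intact BE and 14 for the same under rapamycin, in place of 15, 3 and 9. Without a filter there were 5 for seBE against intact BE and 2 for the difference between drug effects, in place of 3 and 0. With the compared libraries alone there were 6 for the mutant against nCas9, 13 for seBE against intact BE and 1 for the difference between drug effects, in place of 11, 3 and 0. With the trend removed these 3 counts were 3, 1 and 1. With the replicate number as a block there were 23 for intact BE against the mutant, 5 for seBE against intact BE and 1 for the drug effects compared. Of the 6 genes, 4 were past the threshold for intact BE against nCas9 and 2 for the mutant against nCas9, in place of 2 and 0. The share of all genes called under each setting is not given here. A change in the counts above or below therefore cannot be told apart from a change in calls over all genes. The labels give no pairing by number, and the main fit does not pair libraries. Over all tested genes, deviations of same-numbered libraries correlated between -0.03 and 0.09 in 27 pairs, 0 of them over 0.1. Counting noise enters these correlations, so they cannot exclude pairing. In seBE, the mitochondrial share of replicates 1 to 3 was 2.66%, 4.10% and 2.80% under vehicle. Under rapamycin it was 2.99%, 4.61% and 3.15%. Cpa3 was highest in replicate 3 in every group. Whether the numbers pair libraries is thus not settled. Counts of list genes were also taken with single libraries left out. Leaving out single libraries gave 1 to 12 for the mutant against nCas9, 7 to 22 for intact BE against the mutant, 1 to 16 for seBE against nCas9, 0 to 4 for seBE against intact BE, 6 to 11 for rapamycin in intact BE, 3 to 11 for seBE against intact BE under rapamycin and 0 to 1 for the difference between drug effects. For intact BE against nCas9 this range was 21 to 27, with 26 in the main analysis. Among the 6, Cpa3 and Ms4a2 had the largest SEs for rapamycin in intact BE (0.253 and 0.230), and Ms4a2 had the fewest reads. A marker without a count in a single library may lie anywhere up to the floor of 3 counts there. Fcer1a, Cma1, Tpsb2, Tpsab1, Mrgprb2 and Prss34 had 0 counts over all 18 libraries, so their limit lies below that floor.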
